A study of Equus caballus with 93 samples.

Results

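Some of the most heavily read genes of horse joint fluid cells, ENSECAG00000032733, ENSECAG00000034383, ENSECAG00000008503 and ENSECAG00000001650 are described here across 93 RNA-seq libraries. These 4 of 15838 measured genes were chosen by their measured levels, as genes that took more reads than any other in single libraries. Their levels, ranks and shares of the reads are therefore descriptions and carry no test. The deposited table gives Ensembl identifiers without symbols, and 0 of the 15838 identifiers could be paired with a name here. No role, cell type or sequence is given for any of them.

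The cells came from the synovial fluid of 16 horses, 2 to 5 years old, in which an osteochondral fragment had been created surgically in a middle carpal joint. This operation is a model of post-traumatic osteoarthritis and differs from the slow natural disease. In the Control arm, 8 horses received saline in the operated joint at week 2. In the iPAAG arm, 8 horses received 2 mL of a 2.5% injectable polyacrylamide hydrogel in the operated joint at the same time. Every horse was operated on, and every horse was exercised from week 2 to week 10. Fluid was sampled at weeks 0, 2, 4, 6, 8 and 10 from the same animals, and week 0 preceded surgery. Surgery and elapsed time therefore cannot be told apart in a change from week 0, nor can exercise in a change to any week after week 2. Whether fluid was taken before or after the injection on the day of week 2 is not stated in the labels. Each arm-by-week group held 8 libraries, apart from both groups of week 4 and the iPAAG group of week 8, which held 7. Sham-operated joints and synovial membrane were not analysed here.

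Synovial fluid holds a mixture of macrophages, lymphocytes, neutrophils and cells shed from the lining, and its make-up shifts when a joint is injured. In a sequencing library, a small number of abundant transcripts commonly takes a large part of the reads. Because reads are counted relative to the library, the level of such a gene falls when other transcripts take more of the reads, and it can lower the levels of all other genes when it takes more itself. In bulk RNA, fewer cells of a type and less RNA per cell cannot be told apart.

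The values are log2 CPM, the base 2 logarithm of the reads of a gene relative to a scaled library size. Whole reads could be recovered from them, so each gene's share of the reads in genes is given as well, as a percent. No gene lengths entered either measure, so an order among the genes is an order of reads and not of transcript copies. The recovered reads per library ranged from 1737741 to 39916655, with a median of 21063527. The libraries differed in library spread, which is the SD of log2 CPM over all genes of a library other than these 4. Spread ran from 1.20 to 1.89 in 23 libraries from 12 horses and from 2.19 to 4.21 in the other 70. Libraries with a spread below 2 are called low-spread libraries below, and none held more than 12597216 reads. They were unevenly distributed. The Control arm had 0, 1, 0, 2, 1 and 2 of them at weeks 0 to 10, and the iPAAG arm had 1, 1, 4, 4, 1 and 6. The scaled library size was 1.13 to 2.49 times the counted reads in low-spread libraries and 0.40 to 0.98 times in the others. Results are therefore given with and without the low-spread libraries.

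Together the 4 genes took 4.34% to 46.0% of the reads in the 70 libraries of higher spread, with a median of 5.61%. In the 23 low-spread libraries they took 0.134% to 5.49%, with a median of 2.67%. The median share over all 93 libraries was 2.21% for ENSECAG00000032733, 1.17% for ENSECAG00000008503, 0.957% for ENSECAG00000034383 and 0.448% for ENSECAG00000001650. All 4 had their lowest share in the same library, iPAAG horse 3 at week 10, which had the lowest spread of all, 1.20. There ENSECAG00000032733 held 3462 of 8631419 reads, a share of 0.0401% with an exact 95% binomial interval of 0.0388% to 0.0415%. ENSECAG00000008503 held 1370 reads in it and ranked 700. Such intervals cover counting error only, because amplified reads are not independent molecules.

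The highest shares came from 4 different horses. ENSECAG00000001650 reached 2.67% (exact interval 2.66% to 2.68%) in Control horse 9 at week 0. ENSECAG00000008503 reached 2.58% (2.58% to 2.59%) in Control horse 10 at week 4. ENSECAG00000034383 reached 2.24% (2.24% to 2.25%) in Control horse 2 at week 0. These 3 maxima lay between 2.24% and 2.67% of the reads, and the maximum of ENSECAG00000032733 was far above them. It took 44.8% (44.7% to 44.8%) of the 6076026 reads of Control horse 11 at week 8. The largest recovered counts of this gene were 2720000, here, and 1460000, 1280000 and 1120000 in other libraries. All are round numbers, and the interval does not cover any rounding of the counts.

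The library of Control horse 11 at week 8 stood apart. The next highest share of that gene in any library was 4.92%, and its share at the other weeks of this horse was 1.74% to 3.63%. The scaled size of the library was 0.40 times its reads, the lowest factor of all, so the gene's level of 20.08 log2 CPM corresponds to 1105680 CPM, above the total to which all CPM values of a library sum when its own reads are the divisor. Its spread was 3.33, within the range of the higher-spread libraries. Among the reads left after removing ENSECAG00000032733, ENSECAG00000008503 held 1.27%, within its range of 0.747% to 2.22% at the horse's other weeks. ENSECAG00000034383 held 0.719% of them, below its range of 0.908% to 1.09%, and ENSECAG00000001650 held 0.207%, below its range of 0.394% to 1.33%. The second gene of the library was ENSECAG00000055539, with 7.73% of the reads.

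ENSECAG00000032733 ranked first in 67 of the 93 libraries, in 19 of the 23 low-spread libraries and in 48 of the other 70. ENSECAG00000001650 ranked first in 8, ENSECAG00000008503 in 6 and ENSECAG00000034383 in 3. In the remaining 9 libraries another gene led. ENSECAG00000045200, which is not among the 4, led in 5 of them, more often than ENSECAG00000034383. ENSECAG00000015935, ENSECAG00000026889, ENSECAG00000045744 and ENSECAG00000054575 each led in 1. For ENSECAG00000026889 and ENSECAG00000054575 that was a low-spread library, iPAAG horse 7 at week 4 and iPAAG horse 3 at week 10. Their median ranks over all libraries were 1459 and 12452. A single first rank thus did not require a high rank elsewhere.

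The ranks of the 4 genes differed in steadiness. ENSECAG00000032733 was among the 10 most heavily read genes in 92 libraries, ENSECAG00000008503 in 90 and ENSECAG00000034383 in 89. ENSECAG00000001650 was among them in 42 only. The 8 libraries that it led all had a spread of 2 or more. By week, from week 0 to week 10, it led 3, 2, 1, 2, 0 and 0 libraries. It was among the top 10 in 13 of 16 libraries at week 0, in 3 of 16 at week 6 and in 2 of 15 at week 8. Its median rank went from 6.5 at week 0 to 18.5 at week 6, 15 at week 8 and 11 at week 10. ENSECAG00000034383 led 2 libraries at week 0 and 1 at week 8, and its median rank was 2.5 at week 0 and 6 at week 2.

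**Figure D1:**
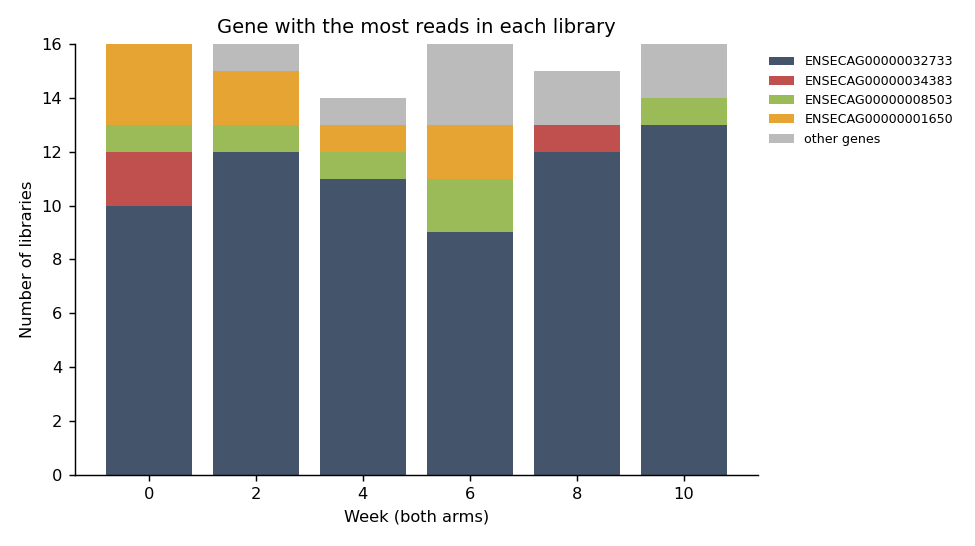
Number of libraries (vertical axis) in which each gene held the most reads, by week (horizontal axis), both arms together. ENSECAG00000032733 led 9 to 13 libraries at every week, and ENSECAG00000001650 led none at weeks 8 and 10.

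Changes over weeks were tested with limma over all 15838 genes, with horse as a random block. The planned model takes each gene's prior variance from a trend on mean level. At the levels of these genes the trend ran to prior SDs of 19.4 for ENSECAG00000032733, 10.0 for ENSECAG00000008503, 8.64 for ENSECAG00000034383 and 4.78 for ENSECAG00000001650. Their own residual SDs were 1.29, 1.32, 1.26 and 1.53 log2 CPM. A fit with 1 constant prior variance for all genes, with a prior SD of 0.637, was therefore added after the data were seen. Both are given for all libraries. The fitted changes are identical in both, and only their standard errors and p-values differ. A change is called where the Benjamini-Hochberg adjusted p over all genes was below 0.05. Limma p-values of changes without the low-spread libraries come from the constant prior. At week 10 the planned model called fewer of the 4 genes there. With only 4 genes, a count of calls is a description beside the share of all genes called. The same values chose the genes, so the tests of change are not independent of the choice. ENSECAG00000001650 led 3 libraries at week 0 and 0 at weeks 8 and 10. ENSECAG00000034383 led 2 at week 0 and 1 at week 8.

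The level of each gene in every library showed how the course over weeks and the low-spread libraries ran together. In the plot of levels the libraries far below their groups were nearly all low-spread ones.

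**Figure D2:**
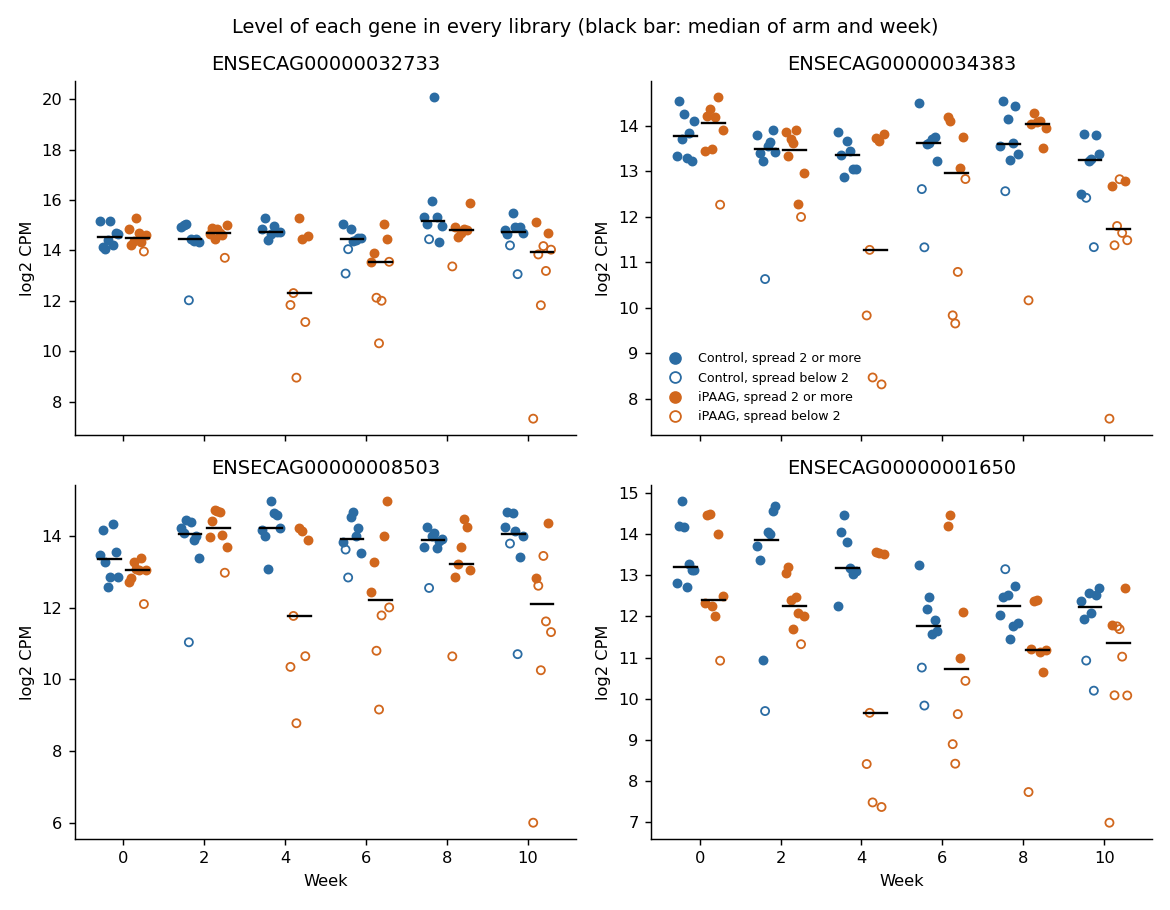
Level of each gene in log2 CPM (vertical axis) in each library, by week (horizontal axis), with Control in blue, iPAAG in orange, open circles for libraries of spread below 2 and black bars for group medians. The open circles lie at the bottom of most groups, and 1 Control library at week 8 lies at 20.08 for ENSECAG00000032733.

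ENSECAG00000032733 had group medians between 14.18 and 15.31 log2 CPM where spread was 2 or more, the narrowest such range of the 4. At week 0 its lowest, median and highest levels were 14.07, 14.52 and 15.19 log2 CPM in Control and 13.96, 14.49 and 15.29 in iPAAG. At week 2 they were 12.02, 14.46 and 15.06 in Control and 13.71, 14.67 and 15.01 in iPAAG. The arms overlapped at both weeks, and the lowest library in each of these groups except Control at week 0 was a low-spread one. At week 4 they were 14.41, 14.73 and 15.30 in Control and 8.96, 12.31 and 15.27 in iPAAG. The 4 iPAAG libraries below 14 at week 4 were all of low spread, and the other 3 lay within the Control range.

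Later levels of ENSECAG00000032733 followed the same layout. At week 6 its lowest, median and highest levels were 13.08, 14.45 and 15.05 in Control and 10.32, 13.54 and 15.05 in iPAAG. At week 8 they were 14.35, 15.18 and 20.08 in Control and 13.37, 14.80 and 15.89 in iPAAG. At week 10 they were 13.06, 14.74 and 15.49 in Control and 7.33, 13.94 and 15.11 in iPAAG. The arms overlapped at every week.

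ENSECAG00000032733 was not called against week 0 at any week over all libraries, with the variance trend or with the constant prior. Its change from week 0 to weeks 4 to 10 was -0.44 ± 1.24 (SE; limma adjusted p = 0.80) with the variance trend and -0.44 ± 0.35 (adjusted p = 0.33) with the constant prior. It was lower in 9 of 16 horses. When those libraries of low spread were left out it was called at week 8 only, with a rise of 0.80 ± 0.26 (limma constant prior, adjusted p = 0.012). It was higher in 11 of 13 horses there, by a median of 0.47 (exact sign-flip permutation over horses, two-sided, unadjusted p = 0.013). The size of this rise rested in part on Control horse 11, without which it was 0.50, and the call held in all 16 fits that left out 1 horse. Over weeks 4 to 10 the change without the low-spread libraries was 0.28 ± 0.21 (limma constant prior, adjusted p = 0.30).

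ENSECAG00000034383 had its highest mean level at week 0 (13.81 log2 CPM over both arms) and its lowest at week 10 (12.25). At week 0 its lowest, median and highest levels were 13.23, 13.78 and 14.55 log2 CPM in Control and 12.27, 14.06 and 14.64 in iPAAG. At week 2 they were 10.63, 13.50 and 13.91 in Control and 11.998, 13.48 and 13.92 in iPAAG. At both weeks the arms overlapped. At week 4 they were 12.88, 13.37 and 13.87 in Control and 8.31, 11.27 and 13.83 in iPAAG. The iPAAG libraries of week 4 fell into 3 within the Control range and 4 low-spread ones below it.

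The later groups of ENSECAG00000034383 overlapped between arms. At week 6 its lowest, median and highest levels were 11.33, 13.62 and 14.50 in Control and 9.65, 12.96 and 14.19 in iPAAG. At week 8 they were 12.56, 13.59 and 14.54 in Control and 10.16, 14.03 and 14.30 in iPAAG. At week 10 they were 11.33, 13.25 and 13.83 in Control and 7.56, 11.72 and 12.83 in iPAAG. The iPAAG group of week 10, with 6 of its 8 libraries of low spread, had the lowest median for weeks 6 to 10. Its 2 libraries of higher spread had a median of 12.74, also the lowest of those weeks.

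Over all libraries ENSECAG00000034383 was not called with the variance trend. Its change from week 0 to weeks 4 to 10 was -1.08 ± 0.63 (limma adjusted p = 0.17). With the constant prior the same change was called (-1.08 ± 0.34, adjusted p = 0.011), in all 16 fits that left out 1 horse. It was lower in 13 of 16 horses (exact sign-flip permutation, two-sided, unadjusted p = 0.00049). Of the single weeks, week 4 (-1.50 ± 0.45, limma constant prior, adjusted p = 0.014) and week 10 (-1.56 ± 0.43, adjusted p = 0.0034) were called.

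Without the low-spread libraries the fall of ENSECAG00000034383 was smaller. Its change from week 0 to weeks 4 to 10 was -0.35 ± 0.13 (limma constant prior, adjusted p = 0.026), and this call was lost when horse 5, 10, 12 or 16 was left out (adjusted p up to 0.10). It was lower in 10 of 15 horses, and the exact sign-flip permutation gave an unadjusted p of 0.18. The week 10 value remained called at -0.90 ± 0.20 (adjusted p = 0.00083) in all fits that left out 1 horse, from 8 libraries, of which 2 were iPAAG. At week 2 it was -0.44 ± 0.15 (adjusted p = 0.019), lost without horse 2 or horse 12 (adjusted p up to 0.10). At week 8 it was 0.01 ± 0.16 (adjusted p = 0.98).

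Of the variance-trend fit and the constant-prior fit, neither called ENSECAG00000008503 against week 0 over all libraries. The constant prior called it where the low-spread libraries were left out. At week 0 its lowest, median and highest levels were 12.58, 13.37 and 14.35 log2 CPM in Control and 12.10, 13.05 and 13.40 in iPAAG. At week 2 they were 11.03, 14.05 and 14.46 in Control and 12.98, 14.23 and 14.73 in iPAAG. In both arms the week 2 median lay above the week 0 median, and in iPAAG 7 of the 8 week 2 libraries lay above the highest week 0 library. The share of all genes that did so was not counted. At week 4 they were 13.08, 14.22 and 14.98 in Control and 8.77, 11.77 and 14.24 in iPAAG. The 4 lowest iPAAG libraries of week 4 were the low-spread ones.

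The later groups of ENSECAG00000008503 reached lower in iPAAG than in Control. At week 6 its lowest, median and highest levels were 12.84, 13.92 and 14.66 in Control and 9.16, 12.23 and 14.97 in iPAAG. At week 8 they were 12.55, 13.90 and 14.25 in Control and 10.64, 13.23 and 14.47 in iPAAG. At week 10 they were 10.70, 14.07 and 14.68 in Control and 6.00, 12.12 and 14.36 in iPAAG. The Control medians from week 2 on all exceeded the Control median of week 0, and the iPAAG medians of weeks 4, 6 and 10 were below that of week 0.

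Over all libraries ENSECAG00000008503 was not called against week 0 by either of these 2 fits. The change to weeks 4 to 10 was -0.09 ± 0.71 (limma with the variance trend, adjusted p = 0.93) and -0.09 ± 0.36 with the constant prior (adjusted p = 0.86), lower in 8 of 16 horses and higher in 8. The week 2 change was 0.76 ± 0.45 (limma constant prior, adjusted p = 0.27), higher in 13 of 16 horses (exact sign-flip permutation, two-sided, unadjusted p = 0.0052).

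Without the low-spread libraries ENSECAG00000008503 rose at every week after week 0. The rise was 0.98 ± 0.18 at week 2 (limma constant prior, adjusted p = 2.5e-05), in 12 of 14 horses, and 0.92 ± 0.22 at week 4 (adjusted p = 0.0015), in 8 of 10 horses. Both calls held in all 16 fits that left out 1 horse. At weeks 6, 8 and 10 the rises were 0.67 ± 0.21, 0.52 ± 0.19 and 0.65 ± 0.25 (adjusted p = 0.017, 0.026 and 0.036). These later calls were each lost when any of 3, 5 and 5 single horses was left out, with adjusted p up to 0.12, 0.086 and 0.42. The lists share horses 10 and 11. With unscaled library totals these 3 weeks were not called either (limma adjusted p = 0.055, 0.23 and 0.065). Averaged over weeks 4 to 10 the rise was 0.69 ± 0.16 (adjusted p = 0.00036), in 11 of 15 horses (exact sign-flip permutation, unadjusted p = 0.0052), and with unscaled library totals it was 0.54 ± 0.15 (limma adjusted p = 0.0031).

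ENSECAG00000001650 varied most of the 4 within groups, and its mean over weeks 4 to 10 was below week 0 in every horse. At week 0 its lowest, median and highest levels were 12.72, 13.20 and 14.80 log2 CPM in Control and 10.93, 12.40 and 14.50 in iPAAG. At week 2 they were 9.70, 13.86 and 14.68 in Control and 11.33, 12.25 and 13.21 in iPAAG. The arms overlapped at both weeks. At week 4 they were 12.26, 13.17 and 14.47 in Control and 7.37, 9.66 and 13.57 in iPAAG. The 3 iPAAG libraries of higher spread at week 4 lay between 13.51 and 13.57, and the 4 low-spread ones lay below 10.

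The later levels of ENSECAG00000001650 were lower in both arms. At week 6 its lowest, median and highest levels were 9.84, 11.78 and 13.25 in Control and 8.42, 10.72 and 14.46 in iPAAG. At week 8 they were 11.46, 12.26 and 13.15 in Control and 7.73, 11.18 and 12.40 in iPAAG. At week 10 they were 10.20, 12.22 and 12.69 in Control and 6.99, 11.36 and 12.68 in iPAAG. At week 10 the highest Control level, 12.69, lay just below the lowest Control level of week 0, 12.72. The share of all genes without overlap between these groups was not counted.

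From week 0 to weeks 4 to 10 the level of ENSECAG00000001650 fell by 1.63 on the log2 scale, with an SE of 0.50 and an adjusted p of 0.0092 in limma with the variance trend. With the constant prior the SE was 0.42 and the adjusted p 0.0017. All 16 horses were lower, by a median of 1.51 and a range of 0.21 to 4.24 (exact sign-flip permutation, two-sided, unadjusted p = 3.05e-05, the smallest it can give with 16 horses). The call held in all 16 fits that left out 1 horse. The libraries that this gene led were all of weeks 0 to 6, so its fall from week 0 is not independent of how it was chosen. It was also called at week 6 (-1.78 ± 0.53, limma constant prior, adjusted p = 0.0088), week 8 (-1.61 ± 0.54, adjusted p = 0.030) and week 10 (-1.86 ± 0.53, adjusted p = 0.0039). The week 8 call was lost without horse 2, 5, 12 or 13 (adjusted p up to 0.070). The variance trend called weeks 6 (adjusted p = 0.028) and 10 (adjusted p = 0.015) but not week 8 (adjusted p = 0.084), and the week 6 call was lost without horse 2, 6, 7 or 9 (adjusted p up to 0.10). At week 2 the change was -0.50 ± 0.53 (limma constant prior, adjusted p = 0.58), with 8 horses higher and 8 lower.

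Without the low-spread libraries the fall of ENSECAG00000001650 was smaller, and the fitted change at week 4 was not a fall. The change to weeks 4 to 10 was -0.80 ± 0.25 (limma constant prior, adjusted p = 0.0094), lower in 12 of 15 horses, and not called without horse 12 (adjusted p = 0.056). At week 4 it was 0.20 ± 0.35 (adjusted p = 0.74), lower in 8 of 10 horses. At week 8 it was -1.53 ± 0.31 (adjusted p = 0.00013), lower in 12 of 13 horses, and called in all fits that left out 1 horse. At week 10 it was -1.09 ± 0.40 (adjusted p = 0.032), lower in 7 of 7 horses, and not called without horse 2, 5, 6, 10 or 12 (adjusted p up to 0.36).

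**Figure D3:**
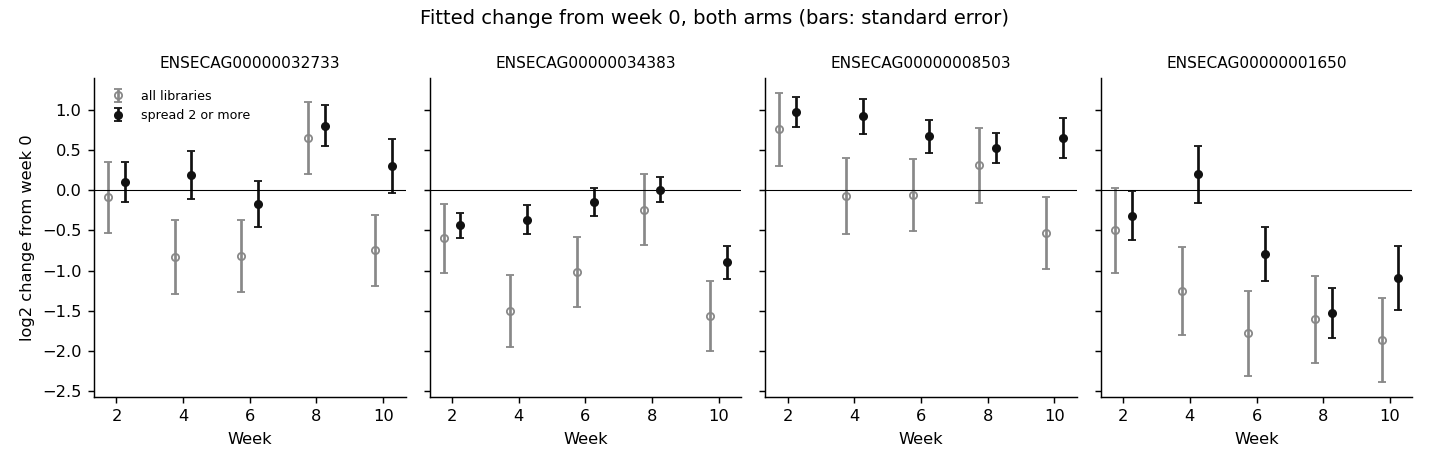
Fitted log2 change of each gene from week 0 (vertical axis) at weeks 2 to 10 (horizontal axis), both arms averaged, with all libraries (open) and with libraries of spread 2 or more (filled); bars are standard errors of the limma fit with a constant prior. The filled points of ENSECAG00000008503 lie above 0 at every week, between 0.52 and 0.98, and those of ENSECAG00000001650 lie below 0 at every week except week 4.

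Counted together, 0 of the 4 genes were called by the variance-trend fit from week 0 to week 2, against 19.6% of all genes. None of the 4 had an unadjusted p below 0.05 there, and voom precision weights called 0. From week 0 to weeks 4 to 10 it called 1, against 34.2% of all genes. By single week it called 0 for week 4 (18.4% of all genes), 1 for week 6 (29.9%), 0 for week 8 (14.1%) and 1 for week 10 (42.3%). An unadjusted p below 0.05 was found for 0 of the 4 at week 4 and for 1, ENSECAG00000001650, at week 8. From week 2 to weeks 4 to 10 it called 0 (23.5%), and 1 of the 4, ENSECAG00000001650, had an unadjusted p below 0.05. Voom weights called 1 of the 4 at week 4, 0 at week 8 and 0 from week 2 to weeks 4 to 10. The median change of the 4 genes from week 0 to weeks 4 to 10 was -0.76, and that of all genes was -0.05.

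The constant prior called 0 of the 4 genes for week 2 (19.6% of all genes), 1 for week 4 (18.3%), 1 for week 6 (29.8%), 1 for week 8 (14.0%) and 2 for week 10 (42.1%). It called 2 over weeks 4 to 10 against week 0 (34.1%) and 1 against week 2 (23.2%). That last one was ENSECAG00000001650, with -1.13 ± 0.42 (adjusted p = 0.040), lost when any of 10 single horses was left out (adjusted p up to 0.097). With the low-spread libraries left out, the constant prior called 2 for week 2 (40.0%), 1 for week 4 (21.3%), 1 for week 6 (20.1%), 3 for week 8 (35.0%) and 3 for week 10 (31.3%). It called 3 over weeks 4 to 10 against week 0 (38.9%) and 0 against week 2 (20.8%). The median change of the 4 genes to weeks 4 to 10 was then -0.03, beside -0.06 for all genes, because ENSECAG00000008503 rose and ENSECAG00000001650 and ENSECAG00000034383 fell.

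The comparison of the arms asks whether the change after the injection differed between hydrogel and saline. At week 0, before surgery, the iPAAG minus Control difference lay between -0.66 (ENSECAG00000001650) and 0.03 (ENSECAG00000034383), and 0 of the 4 genes were called by any of the 3 fits, in each of which 0% of all genes were called. For the change from week 2 to weeks 4 to 10, limma called 0 of the 4 genes with the variance trend (0% of all genes, with 3765 of them at an unadjusted p below 0.05 and 0 called with voom weights). The constant prior also called 0 (0% of all genes). Its values were -2.12 ± 0.72 for ENSECAG00000008503 and -1.77 ± 0.70 for ENSECAG00000032733 (both adjusted p = 0.16), -1.20 ± 0.69 for ENSECAG00000034383 (adjusted p = 0.27) and -0.64 ± 0.84 for ENSECAG00000001650 (adjusted p = 0.65). The sign turned without low-spread libraries for ENSECAG00000001650, to 1.27 ± 0.52 (unadjusted p = 0.018, limma adjusted p = 0.39), and for ENSECAG00000034383, to 0.21 ± 0.26 (adjusted p = 0.80).

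The same arm difference was tested over horses for each gene by an exact permutation of the arms. The level of ENSECAG00000032733 was lower after the injection in 8 of 8 iPAAG and 2 of 8 Control horses (two-sided, unadjusted p = 0.0037). For ENSECAG00000008503 it was lower in 7 of 8 iPAAG and 4 of 8 Control horses (exact unadjusted p = 0.010), and for ENSECAG00000034383 in 6 and 6 (exact unadjusted p = 0.069). For ENSECAG00000001650 it was lower in 8 of 8 and 6 of 8 (exact unadjusted p = 0.46). The iPAAG arm held 15 of the 20 low-spread libraries of weeks 4 to 10. With those left out, ENSECAG00000032733 was lower in 3 of 7 iPAAG and 1 of 7 Control horses (exact unadjusted p = 0.26), and ENSECAG00000008503 in 6 of 7 and 3 of 7 (exact unadjusted p = 0.054). ENSECAG00000034383 was then higher in all 7 iPAAG horses and lower in 6 of 7 Control horses, a mean difference of 0.62 (exact unadjusted p = 0.0082). The limma fit without low-spread libraries, which weighted the weeks equally, gave 0.21 ± 0.26 and did not call it (limma adjusted p = 0.80). In the permutation each horse mean used the libraries left, so the arms were not compared over the same weeks. After week 2, iPAAG horses 6 and 7 had week 8 only, horse 3 week 6 only and Control horse 9 week 4 only. Over the higher-spread libraries the mean level of ENSECAG00000034383 was 13.92 at week 8 and 13.19 at week 10. For ENSECAG00000001650 the mean difference went from -0.62 over all libraries to 1.07, with 4 of 7 iPAAG and 6 of 7 Control horses lower (exact unadjusted p = 0.22). These were 8 arm tests, of which 3 had an unadjusted p below 0.05.

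Over all libraries, the largest arm difference of each gene by single week was that from week 2 to week 4. With the variance trend limma called 0 of the 4 genes (22.9% of all genes), 0 of them had an unadjusted p below 0.05, and voom weights called 0. The constant prior called 2 of 4 (22.5% of all genes), ENSECAG00000008503 at -2.77 ± 0.94 (adjusted p = 0.031) and ENSECAG00000032733 at -2.48 ± 0.92 (adjusted p = 0.042). The first call was lost without any of 5 single horses (adjusted p up to 0.13) and the second without any of 10 (adjusted p up to 0.17). With unscaled library totals, which raised the median arm difference of all genes by 0.99, they were -1.79 ± 0.70 and -1.50 ± 0.68 (adjusted p = 0.053 and 0.082). Without the low-spread libraries they were -0.44 ± 0.44 (adjusted p = 0.87) and -0.18 ± 0.60 (adjusted p = 0.97). ENSECAG00000001650 went from -2.08 ± 1.09 to 1.49 ± 0.72 (adjusted p = 0.14 and 0.65). There 0 of the 4 genes were called, and 0.0126% of all genes were. For weeks 6, 8 and 10 the variance trend called 0 of the 4 and 0% of all genes. Unadjusted p was below 0.05 for 0 of the 4 in each, and voom weights called 0. Over weeks 4 to 10 the fit without low-spread libraries called 0 of the 4 and 0.00631% of all genes.

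The levels of all 4 genes went with library spread. Within the 12 horses that had libraries of both kinds, every one of the 4 genes had a lower mean log2 CPM in the low-spread libraries in 12 of 12 horses. The median difference was -1.72 for ENSECAG00000032733, -2.37 for ENSECAG00000034383, -2.55 for ENSECAG00000008503 and -2.54 for ENSECAG00000001650. Part of this is set by the scaling, which divides the reads of low-spread libraries by more than their total. As a share of the reads, on a log2 scale, the median differences were -0.76, -1.32, -1.40 and -1.48, and the share was lower in 11, 12, 10 and 12 of the 12 horses. Week was not removed from these differences. Most low-spread libraries came from weeks 4 to 10, so changes over weeks enter them.

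Fitted over all 93 libraries around the arm-by-week means, the slope on spread was 0.96 ± 0.25 log2 CPM per unit of spread for ENSECAG00000032733. It was 1.20 ± 0.15 for ENSECAG00000034383, 1.15 ± 0.17 for ENSECAG00000008503 and 1.29 ± 0.16 for ENSECAG00000001650. The median slope of all genes was -0.06. Of 15838 genes, 162, 4, 11 and 0 had a higher slope, so ENSECAG00000001650 had the highest slope of all. These genes were chosen as highly read, so they lie far above the centre of most libraries, and spread measures distance from that centre. Why their levels went with spread was not tested. The slope is therefore a description and not independent of how the genes were chosen.

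Within the 70 libraries of spread 2 or more the slopes were smaller. They were 0.13 ± 0.26 for ENSECAG00000032733, 0.32 ± 0.16 for ENSECAG00000034383, 0.23 ± 0.19 for ENSECAG00000008503 and -0.03 ± 0.29 for ENSECAG00000001650, beside a median of -0.13 for all genes. Of all genes, 1610, 78, 313 and 5968 had a higher one. The plot of shares shows the same break, a steep climb in share below a spread of 2 and no clear trend above it.

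**Figure D4:**
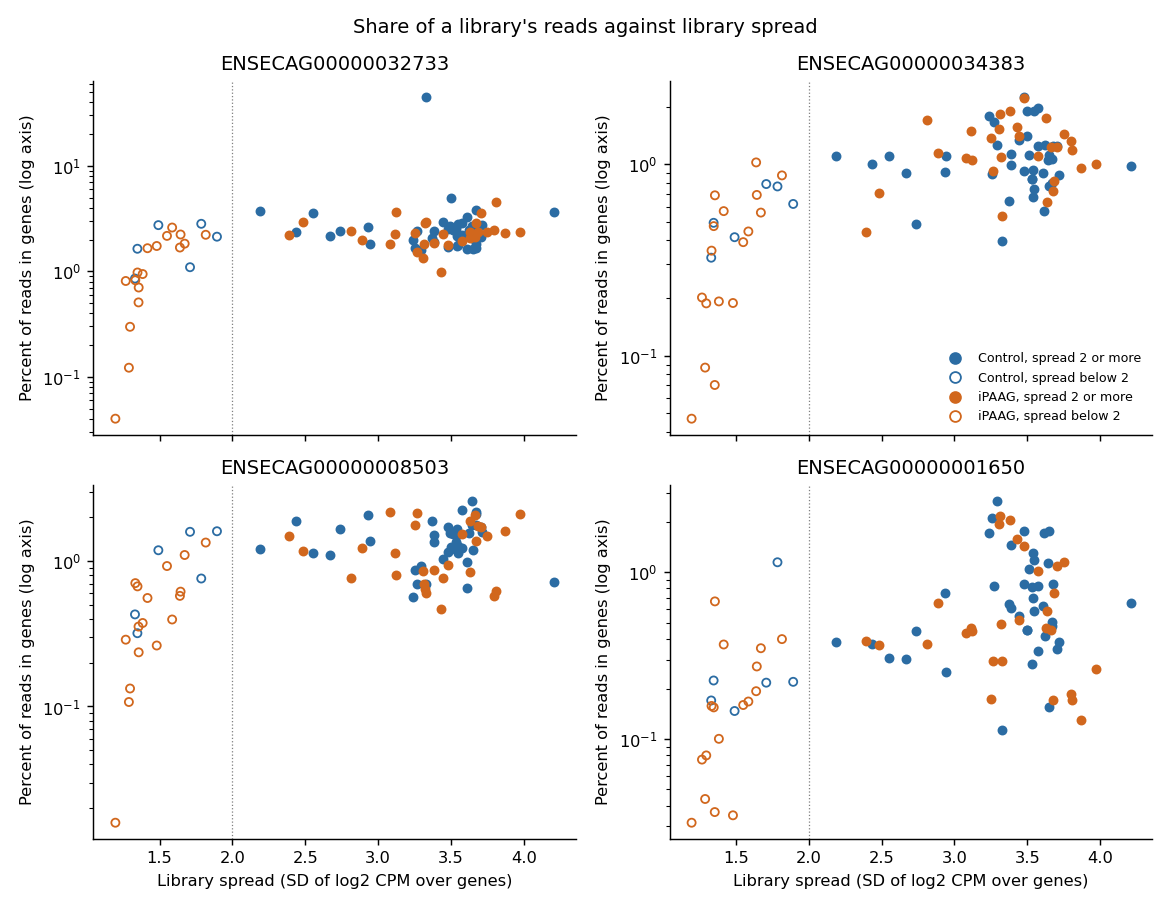
Share of each gene in a library's reads (vertical axis, percent, log axis) against library spread (horizontal axis, SD of log2 CPM over genes), with Control in blue, iPAAG in orange and open circles for spread below 2; the dotted line marks 2. The library of lowest spread, 1.20, has the lowest share of every gene, and the library at 44.8% for ENSECAG00000032733 has a spread of 3.33.

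Within single horses the level followed spread in most animals. The slope was positive in 13 of 16 horses for ENSECAG00000032733, in 15 for ENSECAG00000034383, in 15 for ENSECAG00000008503 and in 16 for ENSECAG00000001650. The median slopes per horse were 0.74, 1.09, 0.91 and 1.18. Among the 10 horses with enough libraries of spread 2 or more, it was positive in 6, 7, 8 and 8, with medians of 0.15, 0.18, 0.22 and 0.61. Week was not removed from these slopes per horse, so changes of level and spread over weeks enter them. The last median, for ENSECAG00000001650, stands beside the slope of -0.03 ± 0.29 around the arm-by-week means given above.

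Over all 93 libraries, those of 1 horse were little alike in these 4 genes, a measure that also holds the differences in spread. The correlation between libraries of 1 horse, after the arm-by-week means were removed, was 0.08 for ENSECAG00000032733, 0.09 for ENSECAG00000008503, -0.00 for ENSECAG00000034383 and -0.09 for ENSECAG00000001650, beside a median of 0.03 over all genes. Without the low-spread libraries ENSECAG00000008503 had the highest value of the 4, 0.28, against 0.01 for ENSECAG00000032733, 0.06 for ENSECAG00000034383 and -0.09 for ENSECAG00000001650. The median of all genes was then 0.09, and 2271 of 15838 genes exceeded ENSECAG00000008503.

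The SD within arm-by-week groups, over libraries of spread 2 or more, was 0.43 for ENSECAG00000034383, 0.53 for ENSECAG00000008503, 0.71 for ENSECAG00000032733 and 0.85 for ENSECAG00000001650. The median over all genes was 0.55. For ENSECAG00000032733 the SD was 1.92 in Control at week 8, the group with the library at 20.08. In the other groups it was 0.18 to 0.67. Over all 93 libraries the same SDs were 1.26, 1.32, 1.29 and 1.51, beside 0.79 for all genes. The mean level per horse, over its 2 to 6 libraries of higher spread, ran from 14.35 in horse 3 to 15.81 in horse 11 for ENSECAG00000032733, with a median of 14.66. It ran from 13.27 in horse 14 to 14.13 in horse 6 for ENSECAG00000034383, from 13.04 in horse 3 to 14.67 in horse 14 for ENSECAG00000008503, and from 12.11 in horse 7 to 13.40 in horse 9 for ENSECAG00000001650. Horse 3 was lowest for 2 of the genes, and horse 14 was lowest for 1 and highest for another. The mean of horse 11 for ENSECAG00000032733 included its week 8 library at 20.08, and its other libraries lay between 14.39 and 15.18. Among the 11 horses with 4 or more such libraries the ranges were narrower for the other 3 genes. They were 13.41 to 13.99 for ENSECAG00000034383, 13.24 to 14.24 for ENSECAG00000008503 and 12.26 to 13.21 for ENSECAG00000001650. The means also depend on which weeks a horse contributed.

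For each of the 4 genes, the gene with the most similar pattern over the 93 libraries was found among the 12599 genes whose mean log2 CPM was 1 or more. The libraries share depth, spread and horses, and these correlations are descriptions without a test. The closest to ENSECAG00000032733 was ENSECAG00000055539, with a Pearson r of 0.996, and 0.992 after group means and spread were removed. Over the 69 libraries of higher spread without Control horse 11 at week 8, r was 0.977. ENSECAG00000055539 held a median of 32.0% as many reads as ENSECAG00000032733. In Control horse 11 at week 8 it held 17.3% as many, the lowest proportion of all libraries, and its share of 7.73% there compared with a median of 0.704%.

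The closest to ENSECAG00000008503 was ENSECAG00000012660 (r = 0.990 over 93 libraries, 0.977 after group means and spread were removed, and 0.962 over the 70 of higher spread). Its reads were 18.7% to 35.4% of those of ENSECAG00000008503 in every library, a narrow band. The closest to ENSECAG00000001650 was ENSECAG00000024212 (r = 0.940 and 0.871, and 0.875 over the 70), a gene with a median of only 2.01% as many reads. For ENSECAG00000034383 the closest gene changed with the measure. It was ENSECAG00000015929 over all libraries (r = 0.969, and 0.810 over the 70) and ENSECAG00000015514 after group means and spread were removed (r = 0.928, but 0.555 over the 70). For ENSECAG00000034383, 297 genes had an r above 0.9 over all libraries, against 3 for ENSECAG00000032733. After group means and spread were removed, the counts were 2 and 2. Near-identical copies and overlapping genes could share reads in these counts, and whether any of these pairs do was not tested.

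Among the 4 genes themselves, r over all libraries ran from 0.59 (ENSECAG00000032733 with ENSECAG00000001650) to 0.83 (ENSECAG00000034383 with ENSECAG00000001650). After group means and spread were removed it ran from 0.24 to 0.74 for the same pairs.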

How the data were processed

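RNA of synovial fluid cells was sequenced after a stranded low-input total RNA library preparation, per the labels' protocols. The authors deposited 1 table of normalised log2 CPM values from voom for 15838 genes in 93 libraries. The submitters' processing notes name STAR 2.7.10b, EquCab3.0 and limma 3.62.2. For the counter, annotation, strand setting and low-count filter, no source used here gives the choice. Whole reads were recovered from the deposited log2 values by taking the lowest value of a library as 0.5 reads. Of the values, 100% were whole within 0.05 reads, though the largest counts of ENSECAG00000032733 were round numbers. Arm, horse and week came from each library's label. No libraries within a group were duplicates (smallest chi-square per degree of freedom 9.48).

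A model of 12 arm-by-week means was fitted to all genes with limma 3.58.1 in R 4.3.3, horse being a random block (consensus correlation 0.04), with a variance trend and Benjamini-Hochberg adjustment at 0.05. It was tested on simulated data. No count test was made on the recovered reads. Of the 16 horses, 13 had a library at every week. The mean correlation of deviations was 0.06 within a horse and -0.01 otherwise. The constant prior, and its combinations with other settings, were added after the data were seen. Changes per horse were compared by exact sign-flip tests (56 tests, 25 with unadjusted p below 0.05) and arm permutations (8 tests, 3 below 0.05). Shares have exact Clopper-Pearson intervals. Alternatives were other scalings, weights, filters, spread as a covariate and leaving out each horse or the low-spread libraries.

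The 4 genes, and the rules for what is named, were chosen with earlier results of these data known. Named besides them are each gene's most correlated gene and all genes ranked first in a library. The planned cell type marker lists could not be used because no identifier had a name. Other values and plots used Python 3.11.15, numpy 2.4.6, pandas 2.3.3, scipy 1.17.1 and matplotlib 3.10.9.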

Additional observations from a re-analysis of the deposited data

Results flagged for a closer look

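In 13 of 48 gene-by-group sets of 7 or 8 libraries, 1 library stood further from the rest than Dixon's 95% limit allows, which chance alone gives in about 1 of 20. The sets are not independent, because 1 library can stand apart for several genes. In 12 of the 13 the library was a low-spread one at the bottom of its group. Control horse 10 at week 2 was lowest for ENSECAG00000032733 (12.02 log2 CPM), ENSECAG00000034383 (10.63) and ENSECAG00000008503 (11.03). iPAAG horse 3 was lowest at week 10 for ENSECAG00000032733 (7.33), ENSECAG00000034383 (7.56) and ENSECAG00000001650 (6.99). The same horse was lowest at week 8 for ENSECAG00000034383 (10.16), ENSECAG00000008503 (10.64) and ENSECAG00000001650 (7.73). iPAAG horse 14 at week 2 was lowest for ENSECAG00000032733 (13.71). For ENSECAG00000008503, Control horse 13 at week 10 (10.70) and Control horse 9 at week 8 (12.55) were lowest. The exception was Control horse 11 at week 8, highest for ENSECAG00000032733 at 20.08 in a library of spread 3.33.

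In the constant-prior limma fit, added after the data were seen, the interaction term for the change from week 2 to week 4 passed the threshold for ENSECAG00000032733 (-2.48) and ENSECAG00000008503 (-2.77), beside 22.5% of all genes. The planned variance-trend fit called neither (adjusted p = 0.53 and 0.24). Leaving out any of 10 single horses ended the first call, and any of 5 the second. Without the low-spread libraries the values were -0.18 and -0.44. Of the 7 iPAAG libraries at week 4, 4 were of low spread, and of the 7 Control libraries, 0.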

How the results depend on the processing

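The planned variance-trend fit called 0 of the 4 genes from week 0 to week 2, 1 to weeks 4 to 10, 0 for week 4, 1 for week 6, 0 for week 8, 1 for week 10, and 0 in the comparison with week 2 and in every arm comparison. Counts this small move by more than 1.5 times when 1 gene crosses the threshold, and the cause of each move was not tested. Adding 2 reads, dropping the replicate block, fitting horse as a fixed replicate block and keeping the 13 horses with all weeks kept every count within that limit. With the fixed replicate block, ENSECAG00000001650 changed by -1.64 from week 0 to weeks 4 to 10, and without any block by -1.62. The fixed block cannot estimate the arm difference at week 0. Median centring and leaving out Control horse 11 at week 8 also kept every count, in the variance-trend fit.

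From week 0 to weeks 4 to 10 the count was 2 with quantile normalisation, unscaled totals, totals without the 4 genes, a filter at a mean log2 CPM of 1, voom weights, array weights, the constant prior alone, and the constant prior with unscaled totals, quantile normalisation, median centring or without Control horse 11 at week 8. It was 3 without low-spread libraries in each of the 4 fits that left them out. At week 10 it was 2 under the same settings and without low-spread libraries, 3 without them with the constant prior, and 0 with spread as a covariate. At week 2 it was 1 with quantile normalisation (either prior), array weights, or spread as a covariate with the constant prior, and 2 in the 4 fits without low-spread libraries. At week 4 it was 3 with array weights and 1 in the other settings where it moved. At week 6 it was 2 with array weights and 0 with spread as a covariate (either prior). At week 8 it was 3 or 2 without low-spread libraries and 1 in the other settings where it moved. Against week 2 it was 3 with array weights and 1 with quantile normalisation, the filter, the constant prior, and the constant prior with median centring or without Control horse 11 at week 8.

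For the arm difference to weeks 4 to 10 the count was 2 with array weights and 1 with spread as a covariate under the constant prior. At single weeks it was 4 (week 4), 1 (week 6) and 2 (week 10) with array weights. For week 4 it was also 2 with the constant prior, alone, with median centring or without Control horse 11 at week 8, and 1 with the filter. For week 6 it was 1 with spread as a covariate under the constant prior. Leaving out each horse in turn, over all 3 fits, gave counts of 0 to 2 for week 2, 1 to 3 for weeks 4 to 10, 0 to 2 for week 4, 0 to 2 for week 6, 0 to 3 for week 8, 1 to 3 for week 10, 0 to 2 against week 2, 0 to 2 for the arm difference to weeks 4 to 10, 0 to 3 for that at week 4, 0 to 1 at weeks 6 and 10, and 0 at week 8.

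Unscaled totals shifted the median change of all genes by -0.16 to 0.99, depending on the comparison. ENSECAG00000008503 changed sign without low-spread libraries. To weeks 4 to 10 it went from -0.09 to 0.69 (0.68 with spread as a covariate and 0.54 with unscaled totals). At week 4 it went from -0.07 to 0.92 (0.87 and 0.79), at week 6 from -0.06 to 0.67 (0.69 with the covariate) and at week 10 from -0.53 to 0.65. Over fits that left out 1 horse, with either prior and with or without those libraries, these values ranged from -0.22 to 0.79, from -0.26 to 1.00, from -0.31 to 0.84 and from -0.79 to 0.97. The slope of ENSECAG00000001650 on spread went from 1.29 to -0.028 without low-spread libraries. Low-spread libraries held at most 12597216 reads, and the other libraries at least 6076026, so the depths overlap.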
